A study of Mus musculus with 6 samples.

Results

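The thrombospondins are a family of secreted matrix glycoproteins, encoded by Thbs1, Thbs2, Thbs3, Thbs4 and Comp, and CD47 is a cell surface protein that binds thrombospondin 1. These 6 genes were taken by symbol from the 40303 gene models of the deposited table, 1 model per symbol, with the Ensembl identifiers ENSMUSG00000040152 (Thbs1), ENSMUSG00000023885 (Thbs2), ENSMUSG00000028047 (Thbs3), ENSMUSG00000021702 (Thbs4), ENSMUSG00000031849 (Comp) and ENSMUSG00000055447 (Cd47). Thbs2 was chosen because its transcript was lower in tumours of PEG-glutaminase-treated mice than in vehicle tumours. Its difference is therefore described here without a test, and the other 5 genes were chosen by family membership and receptor role. The tumours came from CT26, a single colon carcinoma line of BALB/c origin, placed subcutaneously in 6 BALB/c hosts of WT genotype. The vehicle group is 3 tumours from mice given PBS with 10% glycerol. The PEG-glutaminase group is 3 tumours from mice given PEGylated glutaminase, an enzyme that breaks down glutamine in the circulation, at 50 IU/kg into the peritoneum. Dosing was every 3 days, tumours were frozen after 2 treatments, and each tumour gave 1 library. Both groups carried the same tumour line in mice of the same strain and genotype.

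Thrombospondin 1 and thrombospondin 2 assemble as trimers and carry type 1 repeats, the part that binds the receptor CD36 on vessel cells, and both are known to restrain vessel growth. Thrombospondin 3, thrombospondin 4 and cartilage oligomeric matrix protein, the product of Comp, lack these repeats and assemble as pentamers. Thrombospondin 1 is also known to activate latent TGF-beta, which thrombospondin 2 is not, and to limit nitric oxide signalling through CD47. CD47 has another ligand, SIRP-alpha on macrophages, through which it restrains phagocytosis. In tumours, thrombospondins are known to come from fibroblasts, vessel cells, platelets and tumour cells, so RNA of a whole tumour mixes these sources. In such bulk samples, fewer cells of a type and less RNA per cell cannot be told apart.

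The 250 bases upstream of the RefSeq start of Thbs2, Thbs3 and Thbs4 are shown to let the gene that was chosen be compared with its paralogues. They come from the GRCm38.p6 reference, not from the BALB/cJ gene models of the table, and are written 5′ to 3′ along the gene. RefSeq entries matched 4 of the 6 genes. Capitals mark the CCAAT box (CCAAT), the GC box (GGGCGG) and the TATA box (TATAAA), searched on both strands. The intervals are chr17:14694263-14694512 on the minus strand for Thbs2, chr3:89214930-89215179 on the plus strand for Thbs3 and chr13:92794819-92795068 on the minus strand for Thbs4.
Thbs2: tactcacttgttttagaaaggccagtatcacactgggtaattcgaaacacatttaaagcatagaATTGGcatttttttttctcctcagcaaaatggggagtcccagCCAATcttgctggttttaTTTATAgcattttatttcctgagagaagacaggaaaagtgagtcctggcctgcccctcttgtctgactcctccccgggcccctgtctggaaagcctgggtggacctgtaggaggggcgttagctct
Thbs3: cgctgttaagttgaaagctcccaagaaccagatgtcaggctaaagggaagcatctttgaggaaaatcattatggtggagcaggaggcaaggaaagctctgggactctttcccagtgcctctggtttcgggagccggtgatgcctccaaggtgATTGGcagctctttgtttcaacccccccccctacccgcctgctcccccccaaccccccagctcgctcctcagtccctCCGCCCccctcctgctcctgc
Thbs4: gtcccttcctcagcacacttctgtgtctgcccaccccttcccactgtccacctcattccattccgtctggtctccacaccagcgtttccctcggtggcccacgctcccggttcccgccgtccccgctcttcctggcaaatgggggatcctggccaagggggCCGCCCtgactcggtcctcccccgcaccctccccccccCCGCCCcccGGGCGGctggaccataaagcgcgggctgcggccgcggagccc

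The Thbs2 stretch was 46.8% G or C, against 58.8% for Thbs3 and 70.8% for Thbs4. The median was 52.4% over the 32851 promoters used, which do not cover every chromosome. It held 2 CCAAT matches, 1 TATAAA match and 0 GGGCGG matches. Thbs3 held 1 CCAAT and 1 GGGCGG match, and Thbs4 held 3 GGGCGG matches and 0 of the other motifs. Of the promoters used, at that length, 33.8% held CCAAT, 32.7% GGGCGG and 12.4% TATAAA. The marked motifs do not overlap one another in the 3 stretches. Also searched on both strands, and not marked, were the E-box CANNTG, the AP-1 site TGANTCA and the SMAD box CAGAC, held by 66.2%, 6.75% and 42.2% of the promoters used. Thbs2 held 1, 0 and 2 matches of these, Thbs3 held 1, 0 and 0, and Thbs4 held 1, 0 and 2. A match describes letters in a window.

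Recovered reads per library ran from 16455052 to 18051480. Values below are normalized counts, that is, reads per gene after scaling each library by its size factor. Keratin 20 (Krt20), a keratin of colon epithelium, stood at 2349 to 5226 normalized counts over the 6 tumours. Epcam, an adhesion protein of epithelia, stood at 2.07 to 58.0 and Vil1, the brush border protein villin, at 0 to 4.12, so of these epithelial markers Krt20 alone was abundant. Vehicle 1 stood apart in skin genes: the summed level of 12 keratinocyte markers was 8474 there and at most 298 in the other 5 tumours.

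Thbs2 and Cd47 were the most abundant of the 6 transcripts for their length. Per kilobase of the longest transcript, Thbs2 stood at 1096 ± 133 normalized counts in vehicle tumours against 531 ± 70.4 in PEG-glutaminase tumours (SD, n = 3 per group). On the same scale Cd47 stood at 756 ± 62.1 and 632 ± 107. Thbs2 was above Cd47 in every vehicle tumour and below it in every PEG-glutaminase tumour. The ratio of Cd47 to Thbs2 was 0.623, 0.734 and 0.725 in vehicle tumours against 1.17, 1.15 and 1.24 in PEG-glutaminase tumours. It carries the difference for which Thbs2 was chosen. This order between Thbs2 and Cd47 rests on the length used. Cd47 has a long untranslated part, and per kilobase of coding sequence it was the higher in all 6 tumours, at 1.90 to 3.78 times the level of Thbs2.

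Next in the order per kilobase of transcript was Thbs1, at 140 to 261 over the 6 tumours, and then Thbs3, at 90.3 to 175. These neighbours overlapped in their ranges. Thbs4 followed at 7.08 to 60.1, and Comp was lowest at 0.852 to 2.84, with no overlap between it and Thbs4. Of the summed level of the 5 thrombospondins per kilobase, Thbs2 made up 72.7%, 77.5% and 70.9% in vehicle tumours against 59.3%, 60.9% and 63.9% in PEG-glutaminase tumours. The share of Thbs1 was 12.3% to 15.2% in vehicle tumours against 18.7% to 28.4% in PEG-glutaminase tumours. Thbs2 is part of the sum, so the share of Thbs1 is higher wherever Thbs2 alone is lower. Thbs1 itself stood at 208 ± 41.1 per kilobase in vehicle and 197 ± 61.2 in PEG-glutaminase tumours. The summed level itself was 1487 ± 172 in vehicle and 865 ± 103 in PEG-glutaminase tumours, and Thbs2, the gene chosen for its difference, carries most of it.

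**Figure D1:**
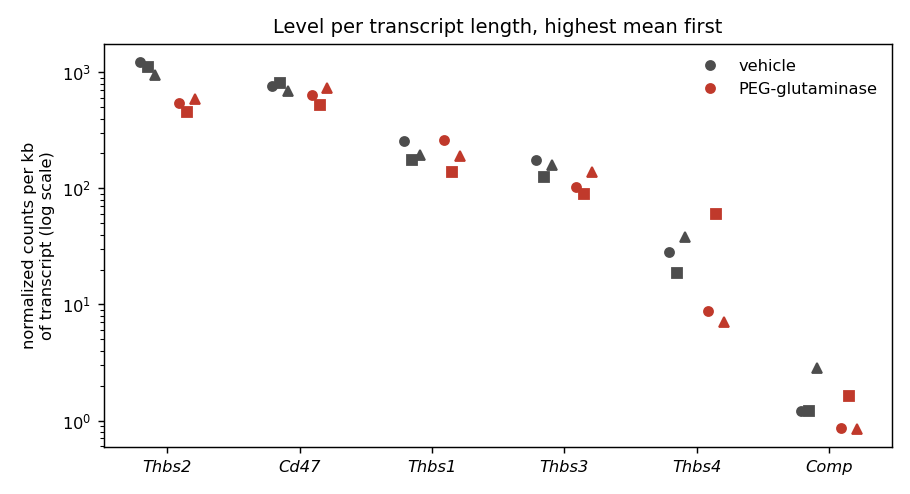
Level of each gene in normalized counts per kilobase of its longest transcript, on a log scale, with genes ordered by their mean over the 6 tumours. Grey points are vehicle and red points PEG-glutaminase tumours (circle, square and triangle for replicates 1, 2 and 3). Thbs2 and Cd47 stand highest and exchange places between the groups, and Comp lies near 1.

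Thbs2, which encodes the vessel-restraining and collagen-organising thrombospondin 2, had 7193, 6559 and 5633 normalized counts in vehicle replicates 1, 2 and 3. In PEG-glutaminase replicates 1, 2 and 3 it had 3220, 2678 and 3494. All 3 treated tumours were lower than all 3 vehicle tumours, and the gap between the groups was wider than the range within either. The means were 6462 ± 785 and 3131 ± 415, so the treated mean was 51.6% lower. On the log2(value + 1) scale the difference was -1.05 ± 0.12 (SE). Of all tested genes, 251 (1.85%), Thbs2 included, stood at or below this difference.

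Removing any 1 tumour left the log2 difference of Thbs2 between -1.14 and -0.94. In the authors' deposited table the log2 fold change of Thbs2 was smaller, at -0.68 with a standard error of 0.28. That comparison is not one of these 6 tumours alone. In genes with 1 read in 1 tumour and 0 in the others, the authors' mean signal is about the value of 1 read divided by 8 (8.04 to 8.07 by library), which is the mean over 8 libraries. The 2 further libraries are not analysed here, and no group is known for them.

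**Figure D2:**
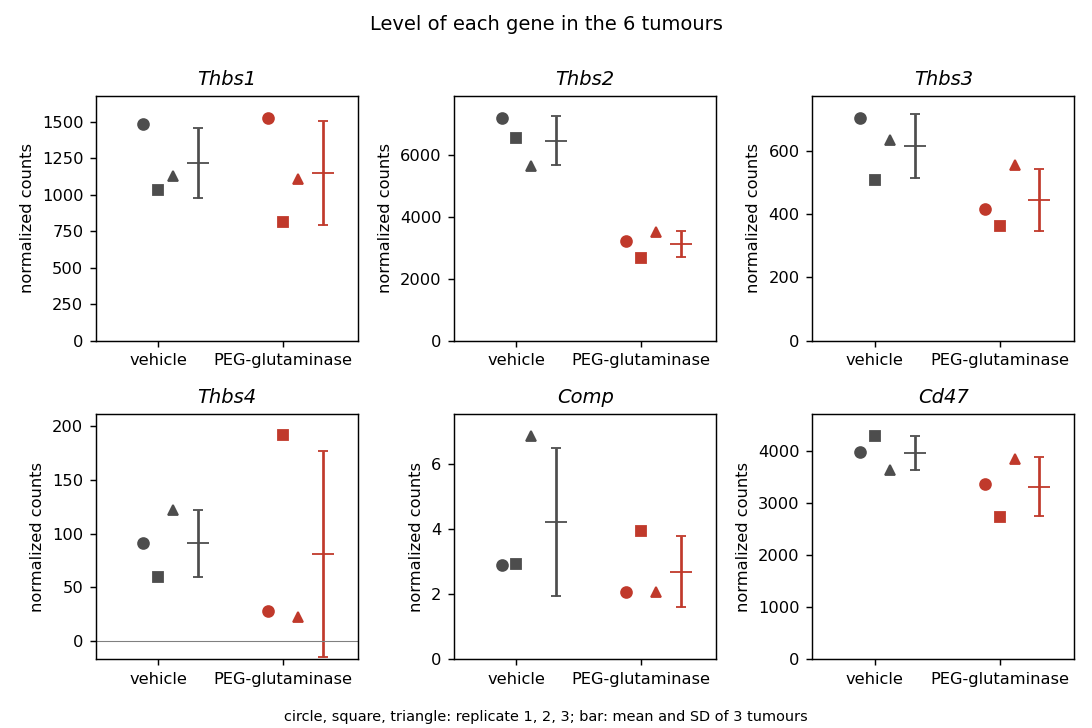
Normalized counts of each of the 6 genes by tumour, with the mean and SD of 3 tumours beside the points. Only Thbs2, which was chosen for its lower level in treated tumours, has groups that do not overlap, as 25.8% of all tested genes do. Thbs4 and Comp are highest in vehicle 3 and PEG-glutaminase 2. The SD bar of Thbs4 in treated tumours reaches below 0 because 1 tumour stands far above the other 2.

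Fibroblasts are a known source of thrombospondin 2. Of 16 fibroblast markers, all tested, 9 were higher and 7 lower in sign, with a median log2 difference of 0.0645. Of the 16, limma, edgeR and DESeq2 called 0 (1 at an unadjusted p under 0.05 by limma, against 18.4% of all tested genes). Their summed level was 61238 to 81132 normalized counts in the vehicle group and 69093 to 86035 in the PEG-glutaminase group. For 10 tested pericyte and smooth muscle markers the median was 0.22 and the summed level was 2451 to 2640 in vehicle and 2495 to 3998 in treated tumours. The lowest Thbs2 value and the highest summed levels of both marker lists were in the same tumour, PEG-glutaminase 2. The fibroblast list was split there. Col1a1 and Col3a1 were highest in that tumour, at 14492 and 17549 normalized counts, and Dcn and Dpt lowest, at 2658 and 166. Markers of other cells differed between the groups too. Of 8 colon epithelial markers, a list made after the data were seen, 7 were tested, 2 higher and 5 lower in sign, with a median of -0.18. limma and edgeR called 0 (4 at an unadjusted p under 0.05 by limma, against 18.4% of all tested genes). DESeq2 called Krt20, as lower, where it called 3.69% of all tested genes. Krt20, by far the most abundant of them, stood at -0.60 ± 0.17 and Cdh1, the adhesion protein E-cadherin, at -1.06 ± 0.32, both without overlap. In the other direction stood Cdx2, an intestinal transcription factor, at 1.26 ± 0.53 with overlap, and Krt8, an epithelial keratin, at 0.85 ± 0.45 without overlap. Cdh1 was highest in vehicle 1, the tumour with the skin genes, at 125 normalized counts, against 59.8 and 52.0 in vehicle 2 and 3. Epcam, also of the list, stood at 58.0 there, against 6.87 and 8.83. The part of skin in these 2 genes was not tested. In 8 of 11 tested T and NK cell markers the groups did not overlap, all lower in treated tumours, where 12.7% of all tested genes were lower without overlap. The part of any of these cells, fibroblasts included, in the Thbs2 values was not tested.

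By Pearson correlation of log2 values over the 6 tumours, the 10 genes most like Thbs2 among 9976 candidates were Col4a5, Itgbl1, Arrdc4, Ctla2a, Eif4b, Itgax, Clec5a, Thra, Tef and Aifm2, with r from 0.983 to 0.995. Col4a5 encodes a basement membrane collagen chain, Itgbl1 a secreted protein related to integrin beta chains, and Itgax the dendritic cell integrin CD11c. Their log2 differences ran from -0.34 for Eif4b to -1.11 for Itgax. All points share the 2 groups, so genes that differ between the groups in the same direction are the ones such a ranking finds. Among the other members, r with Thbs2 was 0.81 for Thbs3, 0.80 for Cd47, 0.35 for Thbs1 and 0.14 for Thbs4.

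Of the 4 paralogues and Cd47, 4 genes reached the average of 10 normalized counts needed for the test, and Comp did not. By limma 0 of these 4 passed an adjusted p of 0.05, where 0.0369% of all 13557 tested genes did (1 of the 4 at an unadjusted p under 0.05, against 18.4% of all; the 1 was Thbs3, as lower, where 9.51% of all were). edgeR and DESeq2 on recovered reads also called 0 of them. All 4 had a log2 difference below 0. All 4 overlapped between the groups, where 25.8% of tested genes did not overlap.

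Thbs1, which encodes the vessel inhibitor and TGF-beta activator thrombospondin 1, had 1488, 1031 and 1132 normalized counts in vehicle replicates 1, 2 and 3. In PEG-glutaminase replicates 1, 2 and 3 it had 1529, 817 and 1106, so the highest and the lowest of the 6 were both treated tumours. The log2 difference was -0.11 ± 0.26 (SE; limma, adjusted p = 0.850), with a 95% interval of -0.74 to 0.52. The interval covers differences in both directions, and the sign depended on 1 tumour: the value was 0.0437 without vehicle 1 and 0.11 without PEG-glutaminase 2. The ratio of Thbs2 to Thbs1 per kilobase was 4.79 to 6.31 in vehicle tumours and 2.09 to 3.25 in treated tumours. This ratio carries the difference for which Thbs2 was chosen. The genes most like Thbs1 over the 6 tumours were Crebzf, Gab2 and Mosmo (r of 0.963, 0.941 and 0.940), and their log2 differences were -0.00938, -0.0303 and -0.0547.

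Platelets store thrombospondin 1 in their granules. Of 11 platelet and megakaryocyte markers 5 were tested, 2 higher and 3 lower in sign. Of the 5, limma, edgeR and DESeq2 called 0 (1 at an unadjusted p under 0.05 by limma, against 18.4% of all tested genes). Their summed level was 398 to 675 normalized counts in vehicle and 543 to 658 in treated tumours. Pf4, which encodes platelet factor 4, made up most of it.

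Thbs3, whose product is the pentameric thrombospondin 3, had 706, 508 and 636 normalized counts in the vehicle group and 416, 364 and 556 in the PEG-glutaminase group (replicates 1, 2 and 3 in order). The treated mean of 445 ± 98.9 lay below the vehicle mean of 617 ± 100, but PEG-glutaminase 3 stood above vehicle 2. The log2 difference was -0.48 ± 0.17 (SE; limma, adjusted p = 0.213; 95% interval -0.87 to -0.0809). It did not pass, and removing 1 tumour put it between -0.65 and -0.34. The genes most like Thbs3 were Pik3c3, Kank2 and B3gntl1, with r from 0.988 to 0.990.

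Thbs4, which encodes a thrombospondin of tendon, muscle and vessel walls, varied most among the tested members. It had 90.8, 59.8 and 122 normalized counts in vehicle replicates 1, 2 and 3, and 28.0, 192 and 22.6 in PEG-glutaminase replicates 1, 2 and 3. The highest tumour and the lowest were both treated, and the highest was 8.49 times the lowest within that group. The log2 difference was -0.79 ± 0.90 (SE; limma, adjusted p = 0.672; 95% interval -3.09 to 1.51). Without PEG-glutaminase 2 it was -1.75 (limma, adjusted p = 0.0583), and without PEG-glutaminase 3 it was -0.24. On the recovered reads edgeR and DESeq2 both gave -0.16.

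Thbs4 stood in the same order over the 6 tumours as the summed level of 12 skeletal muscle markers. That sum was 616, 293 and 1175 normalized counts in vehicle replicates 1, 2 and 3, and 207, 1829 and 138 in PEG-glutaminase replicates 1, 2 and 3. Acta1, the actin of skeletal muscle fibres, had 246, 104 and 577 normalized counts in the vehicle group and 73.5, 816 and 15.4 in the treated group, and Myh4, a fast myosin heavy chain, had 1.03 to 175 over the 6. All 10 tested muscle markers were lower in mean log2 value, with a median log2 difference of -1.15, and 0 passed by limma (0 at an unadjusted p under 0.05), edgeR or DESeq2. The part of muscle in the Thbs4 values was not tested. By the likeness measure used above, among genes averaging 100 normalized counts or more, Srsf3, Rnaseh2b and Tsen54 were the most like Thbs4 (r from 0.968 to 0.974).

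**Figure D3:**
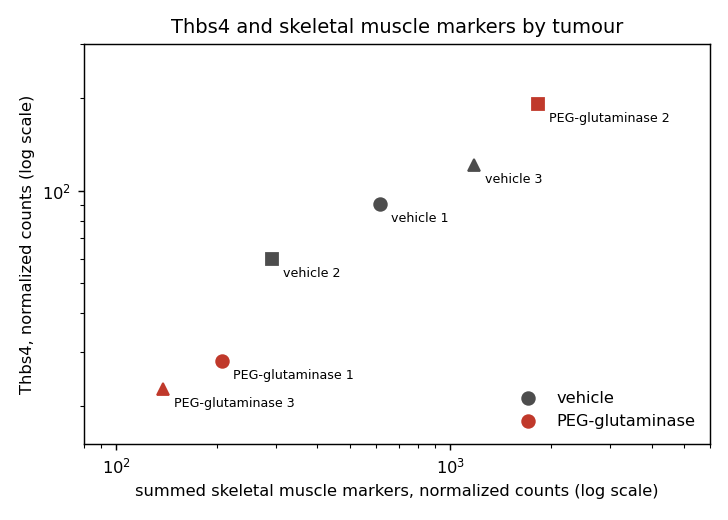
Thbs4 against the summed level of 12 skeletal muscle markers, both in normalized counts on log scales, with 1 point per tumour. The tumours fall in the same order on both axes, from PEG-glutaminase 3 (22.6 and 138) to PEG-glutaminase 2 (192 and 1829).

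Comp, the thrombospondin of cartilage and tendon, was close to the detection limit, with 3, 3 and 7 recovered reads in vehicle tumours and 2, 4 and 2 in treated tumours. That is 2.90, 2.94 and 6.87 normalized counts against 2.07, 3.96 and 2.06. At this depth no difference between the groups was detectable. Its 2 highest values were in vehicle 3 and PEG-glutaminase 2, the tumours with the most muscle transcripts, but they rest on 7 and 4 reads. Of 11 tendon and cartilage markers only Sox9 and Prg4 reached the test. Tnmd of tendon and Hapln1 of cartilage had 0 reads in all 6 tumours, and Acan, the cartilage proteoglycan aggrecan, stood at 0 to 2.94 normalized counts.

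Cd47 had 3989, 4286 and 3635 normalized counts in vehicle replicates 1, 2 and 3, and 3364, 2736 and 3858 in PEG-glutaminase replicates 1, 2 and 3. PEG-glutaminase 3 lay within the vehicle range and the other 2 treated tumours lay below it. The log2 difference was -0.27 ± 0.12 (SE; limma, adjusted p = 0.284), with a 95% interval of -0.55 to 0.00841. Without PEG-glutaminase 2 it was -0.14. The genes most like Cd47 were Dusp10, a phosphatase of stress kinases, Zc3h12a, an RNase that degrades inflammatory transcripts, and Narf, with r of 0.998, 0.994 and 0.994. Markers of T and NK cells stood low in the same treated tumours: their summed level was 4164 to 4989 normalized counts in the vehicle group and 1817, 574 and 3365 in the PEG-glutaminase group (replicates 1, 2 and 3 in order). All 11 tested T and NK markers were lower in sign. Of these, limma and edgeR called 0 (1 at an unadjusted p under 0.05 by limma, against 18.4% of all tested genes). DESeq2 called Cd3d, where it called 3.69% of all tested genes. The part of these cells in the Cd47 values was not tested.

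The genes around the family were described in 8 lists of receptors, partners and pathways, with 104 distinct genes tested. limma and edgeR called 0 of them, and limma gave 23 at an unadjusted p under 0.05, against 18.4% of all tested genes. Over all tested genes 0.00738% passed as higher and 0.0295% as lower, 8.92% and 9.51% did so unadjusted, and 13.1% and 12.7% were higher or lower without overlap. DESeq2 on the recovered reads called 10, against 3.69% of all tested genes. The values below therefore did not pass by limma unless a call is named. The median log2 difference over all tested genes was -4.97e-05, and 50.0% of them were higher.

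**Figure D4:**
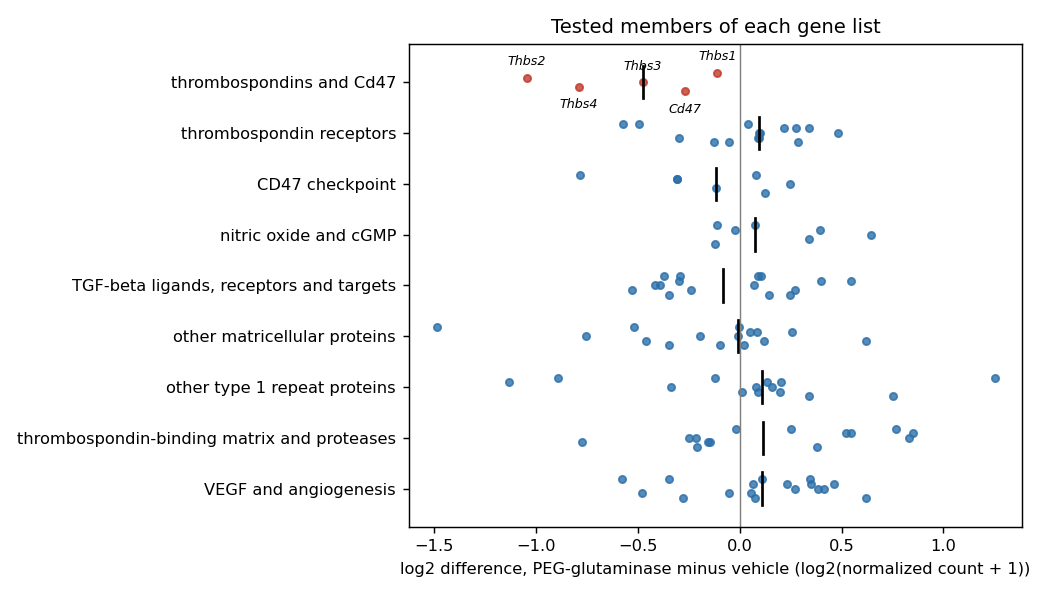
Log2 difference between PEG-glutaminase and vehicle tumours for each tested gene of the family and of the 8 lists, with a black bar at each list's median. The 5 tested genes of the family (red) all lie below 0, from Thbs2 at -1.05 to Thbs1 at -0.11, and the list medians lie between -0.12 and 0.12.

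Of 15 thrombospondin receptors, all tested, 10 were higher and 5 lower in sign, with a median of 0.0943. In 5 of the 15 the groups did not overlap, against 25.8% of all tested genes. By limma 3 were higher and 2 lower at an unadjusted p under 0.05, against 8.92% and 9.51% of all tested genes. Cd36, the receptor of the type 1 repeats, had 616, 610 and 656 normalized counts in the vehicle group and 441, 423 and 401 in the PEG-glutaminase group. Every treated tumour was below every vehicle tumour. Its log2 difference of -0.57 ± 0.0912 (SE) did not pass by limma (adjusted p = 0.104) and was called lower by DESeq2. In the authors' deposited table, with its 2 further libraries, the log2 fold change of Cd36 was -0.15 with a standard error of 0.25. Sdc4, a heparan sulfate proteoglycan of the cell surface, stood at -0.49 ± 0.18 and was the other receptor called lower by DESeq2. Itga3, an integrin chain, stood at 0.28 ± 0.0808 and Lrp8, a lipoprotein receptor family member, at 0.48 ± 0.18.

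Cd36 is also a gene of fat cells. Of 8 fat cell markers 4 were tested, all 4 lower in sign with a median of -0.30. limma and edgeR called 0 (2 at an unadjusted p under 0.05 by limma, against 18.4% of all tested genes). DESeq2 called Plin4, where it called 3.69% of all tested genes. The summed level of the 8 was 805 to 992 normalized counts in vehicle and 635 to 959 in treated tumours. Fabp4 made up most of it, at 481 to 691 over the 6 tumours, with a log2 difference of -0.0736. Adipoq, Plin1, Cidec and Lep did not reach the test, at 0 to 10.9 normalized counts. The part of fat cells in the Cd36 values was not tested.

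The CD47 checkpoint list had 10 genes, of which 7 were tested, 3 higher and 4 lower in sign (median -0.12; 1 at an unadjusted p under 0.05 by limma, 0 called by limma, edgeR or DESeq2). Sirpa, the macrophage receptor that reads CD47, had 2670, 2360 and 3282 normalized counts in the vehicle group and 3228, 2785 and 2712 in the treated group, a log2 difference of 0.0790 ± 0.12. The groups overlapped, and the sign turned to -0.0299 without vehicle 2. Of 12 macrophage markers, all tested, 7 were higher and 5 lower in sign, with summed levels of 37807 to 50922 normalized counts in vehicle and 44765 to 51616 in treated tumours. Of the 12, limma and edgeR called 0 (3 at an unadjusted p under 0.05 by limma, against 18.4% of all tested genes). DESeq2 called Mrc1, as higher, where it called 3.69% of all tested genes. Mrc1 stood at 1.40 ± 0.27. Without overlap between the groups, 3 of the 12 were higher and 0 lower, against 13.1% and 12.7% of all tested genes. Qpctl, which modifies the N-terminus of CD47 where SIRP-alpha binds, stood at 0.25 ± 0.15. The SIRP-alpha phosphatases Ptpn6 and Ptpn11 stood at -0.12 ± 0.12 and 0.12 ± 0.0733, and Ptpn6 was 0.0145 without PEG-glutaminase 2. Cd24a, another signal that restrains phagocytosis, stood at -0.78 ± 0.29, with 53.0 to 87.9 normalized counts in vehicle and 26.7 to 47.6 in treated tumours.

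In the nitric oxide and cGMP list 7 of 10 genes were tested, 4 higher and 3 lower in sign, with a median of 0.0737 (1 at an unadjusted p under 0.05 by limma; 0 called by limma, edgeR or DESeq2). Nos3, the nitric oxide synthase of vessel cells, had 125 to 134 normalized counts in vehicle and 158 to 199 in treated tumours, a log2 difference of 0.39 ± 0.15. Gucy1a1 and Gucy1b1, the subunits of the nitric oxide receptor, stood at 0.65 ± 0.44 and 0.34 ± 0.51, and Prkg2, a cGMP-dependent kinase, at -0.12 ± 0.12. Leaving out 1 library gave 0.43 to 1.01 for Gucy1a1, -0.12 to 0.89 for Gucy1b1 and -0.24 to -0.0164 for Prkg2, each smallest in size or reversed without PEG-glutaminase 2 or vehicle 2. Endothelial markers stood at a median of 0.21 over 12 tested genes, 9 of them higher in sign, with summed levels of 3852 to 4054 in vehicle and 3928 to 5374 in treated tumours. Without overlap 4 were higher and 1, Cldn5, lower, against 13.1% and 12.7% of all tested genes. By limma 3 were higher and 1 lower at an unadjusted p under 0.05, against 8.92% and 9.51%. limma and edgeR called 0 of the 12. DESeq2 called Kdr, as higher, where it called 3.69% of all tested genes. The part of vessel cells in the Nos3 values was not tested.

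Of 16 genes of TGF-beta ligands, receptors and targets, 8 were higher and 8 lower in sign, with a median of -0.0844. The groups did not overlap in 5 of them, against 25.8% of all tested genes. At an unadjusted p under 0.05 limma gave 2 as higher and 5 as lower, against 8.92% and 9.51% of all tested genes. Tgfb1, whose latent product thrombospondin 1 activates, had 2038, 2210 and 2232 normalized counts in the vehicle group and 2423, 2249 and 2230 in the treated group, a log2 difference of 0.0912 ± 0.0773 that was 0.0499 without vehicle 1. Ltbp1, which tethers latent TGF-beta to the matrix, had 6718 to 7254 in vehicle and 8398 to 9821 in treated tumours. Its log2 difference of 0.40 ± 0.0884 was called higher by DESeq2 (limma, adjusted p = 0.114). Ltbp3, a related tether, stood at 0.27 ± 0.0917. Tgfb3 stood at -0.39 ± 0.11, and Skil, a TGF-beta target that feeds back on SMAD proteins, at -0.30 ± 0.0777. Tgfbi, a matrix protein named for its induction by TGF-beta, was the other gene DESeq2 called, as lower.

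Among 18 other matricellular proteins, secreted regulators of the matrix like the thrombospondins, 15 were tested, 6 higher and 9 lower in sign (median -0.0109; 1 at an unadjusted p under 0.05 by limma). Tnr, a tenascin best known from the nervous system, had 223, 174 and 129 normalized counts in the vehicle group and 60.1, 27.7 and 130 in the treated group, so the groups overlapped by PEG-glutaminase 3 alone. Its log2 difference was -1.49 ± 0.57, and DESeq2 called it lower. Without PEG-glutaminase 2 it was -0.94. The tenascin Tnc stood at 0.62 ± 0.29 and Ccn1, a ligand of integrins, at -0.46 ± 0.25. Ccn5, of the same family as Ccn1, stood at -0.76 ± 0.44. Leaving out 1 library moved Tnc to between 0.36 and 0.77, Ccn1 to between -0.71 and -0.29 and Ccn5 to between -0.98 and -0.32. The smallest values were without PEG-glutaminase 2 for Tnc and Ccn1 and without vehicle 3 for Ccn5.

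Of 28 other proteins with type 1 repeats 14 were tested, 10 higher and 4 lower in sign, with a median of 0.11. At an unadjusted p under 0.05 limma gave 1 as higher and 1 as lower, against 8.92% and 9.51% of all tested genes. Spon2, a secreted pattern recognition protein, had 307, 293 and 407 normalized counts in the vehicle group and 112, 115 and 266 in the treated group. The treated tumours were all below the vehicle tumours. Its log2 difference was -1.13 ± 0.36 (limma, adjusted p = 0.197), and DESeq2 called it lower. Without PEG-glutaminase 3 it was -1.54 (limma, adjusted p = 0.0174), while the other 5 removals gave -1.22 to -0.92 (limma, adjusted p from 0.265 to 0.380). Adamtsl5 stood at 0.20 ± 0.0869, Adamtsl1 at 1.25 ± 0.60 and Adamtsl4 at -0.34 ± 0.17. Adamtsl1 was 0.73 without vehicle 2. Adamtsl4 was -0.17 without PEG-glutaminase 2 and -0.53 without PEG-glutaminase 3.

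Among 20 matrix partners and proteases of thrombospondins 14 were tested, 7 in each direction, with a median of 0.12. By limma 2 were higher and 1 lower at an unadjusted p under 0.05, against 8.92% and 9.51% of all tested genes. Mmp9, a gelatinase, had 220, 179 and 195 normalized counts in the vehicle group and 348, 327 and 398 in the treated group. Every treated tumour was above every vehicle tumour. The log2 difference was 0.85 ± 0.13 (limma, adjusted p = 0.0954), and DESeq2 called it higher. Leaving out 1 library gave 0.77 to 0.93 with limma adjusted p-values from 0.0350, without PEG-glutaminase 2, to 0.296, without vehicle 2, and that first removal was the only one of the 6 to pass. In the authors' deposited table the log2 fold change of Mmp9 was 0.53 with a standard error of 0.22 and an adjusted p of 0.172. Mmp2, another gelatinase, had 354, 271 and 480 normalized counts in the vehicle group and 354, 879 and 248 in the treated group. Its log2 difference was 0.25 ± 0.54 (limma, adjusted p = 0.837), with overlapping groups. Mmp14, which activates gelatinases at the cell surface, stood at -0.22 ± 0.0787. Vcan, the proteoglycan versican, stood at 0.83 ± 0.32 and was called higher by DESeq2, and Dcn, the collagen-binding proteoglycan decorin, stood at -0.77 ± 0.35. Without PEG-glutaminase 2 they were 0.52 and -0.46.

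Of 18 VEGF and angiogenesis genes 17 were tested, 12 higher and 5 lower in sign, with a median of 0.11. The groups did not overlap in 4 of them, against 25.8% of all tested genes. At an unadjusted p under 0.05 limma gave 2 as higher and 1 as lower, against 8.92% and 9.51% of all tested genes. Vegfa, the main vessel growth factor, had 3539, 4192 and 3039 normalized counts in the vehicle group and 3570, 2009 and 3048 in the treated group, a log2 difference of -0.35 ± 0.24 with overlapping groups, and was -0.11 without PEG-glutaminase 2. Col18a1, whose collagen is the source of the vessel inhibitor endostatin, had 2060 to 2454 in vehicle and 2865 to 3337 in treated tumours. Its log2 difference was 0.46 ± 0.0938 (limma, adjusted p = 0.113). Kdr, the main VEGF receptor of vessel cells, had 280 to 388 in vehicle and 458 to 674 in treated tumours, a log2 difference of 0.62 ± 0.18. DESeq2 called both higher. Dll4, a NOTCH ligand of sprouting vessels, stood at 0.27 ± 0.13 and at 0.17 without vehicle 3, and Vegfd, a lymphatic growth factor, at -0.48 ± 0.20.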

How the data were processed

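RNA of 6 whole tumours was sequenced after poly-T bead capture and random hexamer priming, per the labels' protocols. The deposited expression signal is the read count per BALB/cJ gene model divided by a size factor. Per the file headers the same table holds the authors' own comparison as log2 fold change, its error, a Wald score and raw and adjusted p-values. STAR, featureCounts, FastQC, DESeq and DESeq2 appear in the submitters' processing notes; their versions, the build and the strand setting were not given in the sources used here. The members and lists were chosen with earlier results of these data known.

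Of 40396 rows, 93 repeat a gene model and were used once. The 2902 models without a symbol stayed in the fit. The values were whole multiples of 1 read for 100% of non-zero values (tolerance 0.01); for PEG-glutaminase 2 the step lies near 1, so recovery there rests on the values alone. Replicates differed beyond sampling noise, with a chi-square over its degrees of freedom of 8.18 or more in every pair. Because the deposited values are normalized, limma 3.58.1 in R 4.3.3 (mean trend, robust, two-sided) was run on log2(value + 1) for 13557 genes with a mean of at least 10, with Benjamini-Hochberg adjustment over all of them and a threshold of 0.05. A log2 difference on this scale understates the change of low genes. Separate mice, 1 tumour each, are the replicates. Named genes were the members, Cd36, Sirpa, Vegfa, Tgfb1, and up to 4 genes of smallest p in each list. The colon markers, other marker genes and Mmp2 were named after their values were seen. Likeness used genes with a mean of at least 100 that carry a symbol. Lengths come from GENCODE M21 by Ensembl identifier and were used as lengths alone. Alternatives were the removal of the filter, a stricter filter (mean 50), other pseudocounts (0.5, 5), edgeR 4.0.16, DESeq2 1.42.0, limma-voom, TMM scaling, the replicate number as a block, coding length, and leaving out each library.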

Additional observations from a re-analysis of the deposited data

Results flagged for a closer look

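In 567 gene models with 0 reads in all 6 tumours, the authors' deposited table gives a mean signal above 0, so it holds signal from libraries outside the 6. The commonest of these means were 0.128 and 0.126, near the value of 1 read over 8 libraries. For the members, the authors' deposited table gives log2 fold changes of -0.68 for Thbs2, -0.35 for Thbs3, -0.75 for Thbs4, 0.0428 for Thbs1 and -0.17 for Cd47, with adjusted p-values of 0.215, 0.665, 0.939 and 0.443 for the 4 after Thbs2.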

How the results depend on the processing

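Over 15 alternatives the log2 difference of Thbs2, the gene chosen for it, stayed between -1.14 and -0.94. The filter changes and the replicate block cannot move this difference by design, and it was -1.05 in each. The paralogues and Cd47 had 0 calls in all 15. The count over all genes, 5, was 136 with no filter, 500 with DESeq2, 1 with the replicate block and 0 to 26 when 1 library was left out. The count over the 8 lists, 0, was 4 with no filter, 10 with DESeq2 and 0 to 1 when 1 library was left out. The pairing by replicate number was checked. Same-numbered tumours' deviations correlated at -0.22 to -0.13 and other pairs at -0.0129 to 0.19, so no tumour correlated best with its own number. With 3 tumours per group, whose deviations are tied together, these values cannot decide whether more than a number is shared. The sign reversed for Thbs1 without vehicle 1 (0.0437) or PEG-glutaminase 2, for Ptpn6 and Gucy1b1 without PEG-glutaminase 2, and for Sirpa without vehicle 2; the cause was not tested. Leaving out 1 library gave -0.34 to 0.11 for Thbs1, -0.21 to 0.0145 for Ptpn6, -0.12 to 0.89 for Gucy1b1 and -0.0299 to 0.21 for Sirpa. Per kilobase of coding length the means over 6 tumours were 337 for Thbs1, 1364 for Thbs2, 185 for Thbs3 and 3552 for Cd47, against 202, 814, 132 and 694 per kilobase of transcript. Of the named genes other than Thbs2, 9 were called by some alternative. Comp is limited by depth.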
